A study of Mus musculus with 4 samples.

Results

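The genes described here are 34 mouse genes of the integrated stress response and the unfolded protein response, out of 23521 genes in the table. They were taken by symbol from a list in 2 branches, with no threshold on a measured value. The ATF4 branch held 13 genes and the ER branch, of chaperones, folding enzymes, sensors and degradation factors of the endoplasmic reticulum (ER), held 21. All 34 had a mean of at least 1 RPKM (reads scaled to transcript length and library size) and were among the 10209 genes tested.

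The measurements came from poly(A) RNA of Hepa1-6 cells, a mouse hepatoma line grown in DMEM with serum. The Control group (2 libraries) had received lentivirus with a scrambled shRNA and is labelled wild type, and the Chd1KD group (2 libraries) had received lentivirus with an shRNA against Chd1, a chromatin remodeler. Both groups had then been held under 4 μg/ml puromycin for 3 weeks, so they share the virus and the drug. The labels give no number of shRNA sequences. No label says that the replicates of a group were separate cultures, so every p-value here rests on a spread between libraries that may be only technical.

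Both responses lower the load of new protein and raise the capacity to handle it. In the integrated stress response, kinases that sense ER stress, amino acid shortage, heme shortage or viral RNA phosphorylate the translation factor eIF2, general translation slows, and the mRNA of the transcription factor ATF4 is translated more. ATF4 then raises genes of amino acid supply and, with its target CHOP (Ddit3), genes linked to cell death. In the unfolded protein response, IRE1 (Ern1) splices Xbp1 mRNA and ATF6 is cleaved, and the resulting factors raise ER chaperones and ER-associated degradation. Hepatocytes secrete large amounts of plasma protein and depend on this folding capacity. Much of both pathways acts on phosphorylation, splicing and cleavage, which gene-level RPKM does not measure.

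Promoter elements that ER stress factors and ATF4 are known to bind were looked for in the members, to show what the sequence of each branch holds beside its expression. RefSeq promoters (GRCm38.p6, from 250 bases before to 50 bases after a transcript start) were matched for 30 of the 34 genes, not for Ppp1r15b, Atf6, Hyou1 and Manf. The ER stress response element, ERSE, was searched as CCAAT, any 9 bases and CCACG on both strands. It stood in 8 of 18 promoters of the ER branch and 0 of 12 of the ATF4 branch, against 0.137% of all 27025 genes with a promoter. The lines below show each ERSE, on the strand of its gene, in capitals between flanks of up to 20 bases.
Hspa5, chr2:34772005-34772063, plus strand: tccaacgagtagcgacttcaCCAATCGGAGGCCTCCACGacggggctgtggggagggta
Hsp90b1, chr10:86705618-86705676, minus strand: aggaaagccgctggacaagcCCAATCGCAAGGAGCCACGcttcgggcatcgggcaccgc
Hsp90b1, chr10:86705513-86705571, minus strand: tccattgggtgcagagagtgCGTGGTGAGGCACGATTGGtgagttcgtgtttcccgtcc
Dnajc3, chr14:118937807-118937865, plus strand: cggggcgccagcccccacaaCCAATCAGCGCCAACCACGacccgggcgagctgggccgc
Pdia6, chr12:17266471-17266529, plus strand: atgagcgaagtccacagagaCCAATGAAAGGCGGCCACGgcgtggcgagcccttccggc
Calr, chr8:84847055-84847113, minus strand: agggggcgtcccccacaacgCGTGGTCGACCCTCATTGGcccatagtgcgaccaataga
Canx, chr11:50325780-50325838, minus strand: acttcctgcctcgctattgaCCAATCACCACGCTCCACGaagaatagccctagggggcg
Syvn1, chr19:6046512-6046570, plus strand: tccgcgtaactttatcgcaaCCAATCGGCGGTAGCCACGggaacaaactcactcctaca
Creld2, chr15:88819500-88819558, plus strand: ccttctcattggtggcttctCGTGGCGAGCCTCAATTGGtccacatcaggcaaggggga

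The second form of the element, ERSE-II, was searched as ATTGG, any 1 base and CCACG. It stood in the promoters of Herpud1 and Dnajb11 and in 0.0444% of all genes; the Dnajb11 match began 7 bases after the start, and is not shown. The C/EBP-ATF composite site through which ATF4 acts, here its core TGATG, any 1 base and AA, stood in 4 of 12 promoters of the ATF4 branch (Nupr1, Chac1, Trib3 and Asns) and in 1 of 18 of the ER branch (Herpud1), against 4.51% of all genes. The Trib3 match began 14 bases after the start. The cyclic AMP response element TGACGTCA stood in Ppp1r15a alone among the members, against 2.03% of all genes, and the XBP1 and ATF6 element TGACGTGG in no member, against 0.714%. None of the matches in members overlapped another. Those of Herpud1 (ERSE-II) and of Chac1, Nupr1 and Asns (composite core) are shown in the same way, because Chac1 had the largest fold change of all members, and Asns, with the same core, had a small one.
Herpud1, chr8:94386357-94386407, plus strand: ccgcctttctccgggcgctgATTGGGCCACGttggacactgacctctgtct
Chac1, chr2:119351029-119351076, plus strand: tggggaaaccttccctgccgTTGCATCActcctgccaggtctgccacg
Nupr1, chr7:126625553-126625600, minus strand: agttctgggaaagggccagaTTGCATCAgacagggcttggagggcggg
Asns, chr6:7693210-7693252, minus strand: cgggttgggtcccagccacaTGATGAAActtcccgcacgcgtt

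The comparison asked whether either branch differs when Chd1 is lowered. Chd1 itself (chromosome 17, 15704967 to 15772612, mm10) measured 21.4 and 22.5 RPKM in Control against 10.4 and 11.3 in Chd1KD. Summed RPKM ranged from 459381 to 484490 per library, and sequencing depth is unknown. Of 13 hepatocyte and hepatoma markers, 10 reached a mean of 1 RPKM and 2 were listed at 0 in all 4 libraries. Their sum was 1224 and 1305 RPKM in Control against 1112 and 1149 in Chd1KD; its part in the results was not tested. Of 25 markers of macrophages, endothelium, fibroblasts and lymphocytes, 0 reached 1 RPKM and 16 were listed at 0 throughout. In bulk RNA, fewer cells of a type and less RNA per cell cannot be told apart.

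None of the 34 genes passed the test over the whole table (limma on log2(RPKM + 1), Benjamini-Hochberg adjusted p under 0.05), where 0.46% of all tested genes passed. Their adjusted p ran from 0.10 for Chac1 to 0.98 for Dnajb11. At an unadjusted p under 0.05 there were 6 members, against 18.5% of all genes tested: Chac1, Trib3, Ddit3, Eif2ak3 and Sdf2l1 were higher and Atf4 was lower in Chd1KD. The Chd1KD libraries lay wholly above the Control libraries for 9 members, against 21.3% of all genes, and wholly below for 3, against 30.5%. In both branches most of the per-gene differences were small: ratios of group means ran from 0.89 to 1.73 in the ATF4 branch and from 0.85 to 1.13 in the ER branch.

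**Figure D1:**
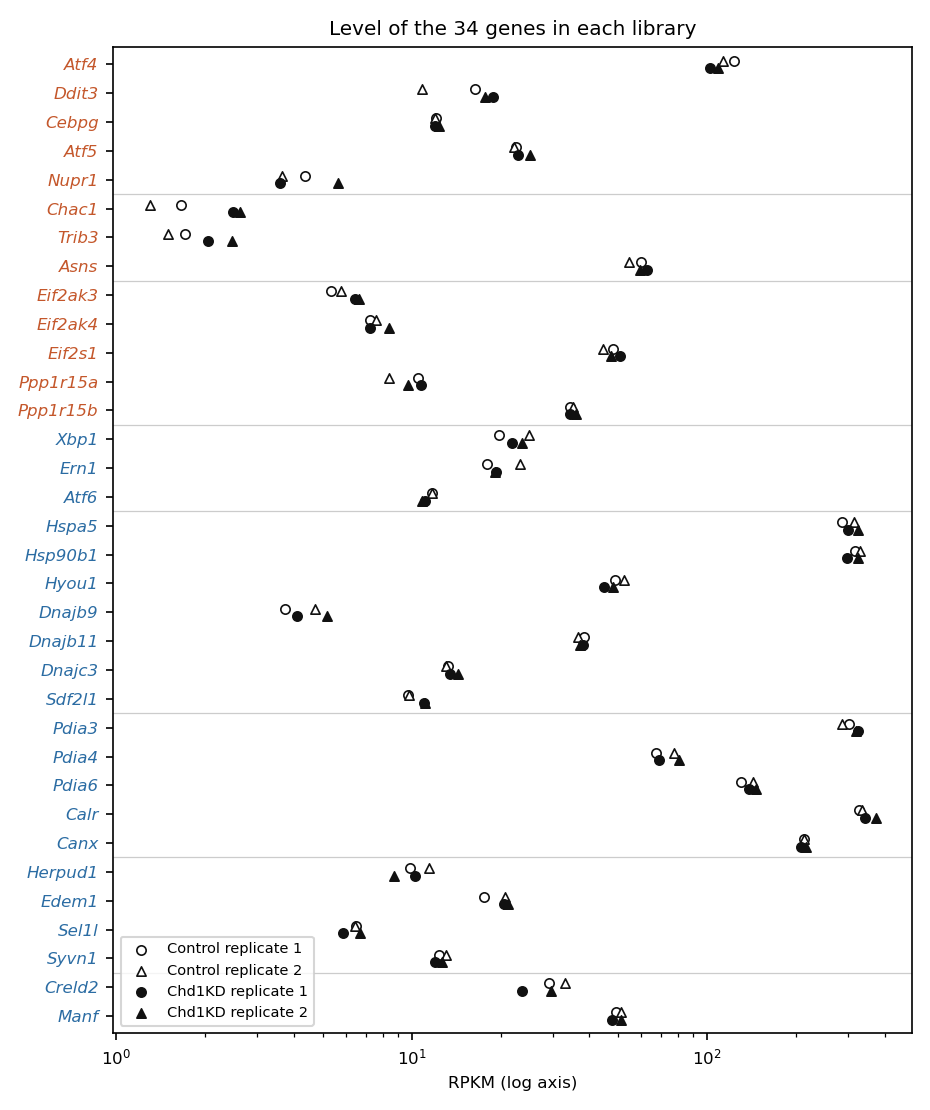
Level of each of the 34 genes in the 4 libraries, in RPKM on a log axis, with genes grouped by role and ATF4 branch names in orange and ER branch names in blue. Open symbols are Control, filled symbols Chd1KD, circles replicate 1 and triangles replicate 2; the lowest values are those of Chac1 and Trib3 and the highest those of Calr, Hsp90b1, Pdia3 and Hspa5.

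Among the transcription factors of the ATF4 branch, Atf4 and its target Ddit3 stood on opposite sides of Control. Atf4 (chromosome 15, 80255184 to 80257545) measured 124 and 113 RPKM in Control against 102 and 109 in Chd1KD. Both Chd1KD values were below both Control values, with a log2 fold change of -0.17 (SE 0.07, 95% interval -0.33 to -0.0065, limma, adjusted p = 0.26). Because ATF4 is controlled mainly in translation, its mRNA level does not report its protein. Ddit3, which encodes CHOP (chromosome 10, 127290793 to 127296291), measured 16.4 and 10.8 RPKM in Control against 18.8 and 17.7 in Chd1KD. The groups did not overlap, but the Control libraries lay further apart than Control replicate 1 lay from either Chd1KD library. The log2 fold change was 0.43 (SE 0.16, 95% interval 0.03 to 0.82, limma, adjusted p = 0.24). Without Control replicate 1 it was 0.71, and its lowest value with another library left out was 0.15. A fit with 1 library left in a group takes its spread from the other group alone, so only its folds are given. The Ddit3 gene overlaps the annotated genes Mars1 and Mbd6, and the strand setting of the counting is not given in the sources used here, so reads of these partners cannot be told apart. The same limit holds for Cebpg, Atf5, Ppp1r15a, Atf6, Hspa5, Pdia3, Pdia6 and Syvn1, which also overlap a protein-coding gene.

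The other transcription factors varied less between the groups. Cebpg, a C/EBP family partner of ATF4, measured 12.1 and 12.0 RPKM in Control against 12.0 and 12.4 in Chd1KD. Atf5, a relative of ATF4 that is likewise regulated in translation, measured 22.5 and 22.1 RPKM in Control against 22.9 and 25.2 in Chd1KD. Its ranges did not overlap, yet the nearest values of the groups differed little. Nupr1, a small chromatin protein induced by stress, measured 4.37 and 3.63 RPKM in Control against 3.59 and 5.62 in Chd1KD, so that its lowest and its highest library were both Chd1KD.

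Of the ATF4 targets, Chac1 and Trib3 were higher in both Chd1KD libraries and Asns overlapped. Chac1, an enzyme that degrades glutathione (chromosome 2, 119351242 to 119354326), measured 1.66 and 1.29 RPKM in Control against 2.48 and 2.62 in Chd1KD. The Control mean was 1.48 ± 0.26 RPKM and the Chd1KD mean 2.55 ± 0.10 RPKM (SD, n = 2 each), so the ratio was 1.73. The pseudocount of 1 shrinks differences at such low levels, and on the log2(RPKM + 1) scale the fold was 0.52 (SE 0.11, 95% interval 0.26 to 0.79, limma, adjusted p = 0.10). It stayed between 0.42 and 0.63 with each library left out in turn. Trib3, a pseudokinase that restrains ATF4 and CHOP, measured 1.71 and 1.49 RPKM in Control against 2.04 and 2.46 in Chd1KD. Its groups did not overlap, with a ratio of 1.41 and a log2 fold of 0.32 (SE 0.11, limma, adjusted p = 0.21). Asns, the asparagine synthetase used as a standard readout of amino acid shortage, measured 60.0 and 54.4 RPKM in Control against 62.7 and 59.2 in Chd1KD. Its log2 fold was 0.09, within an interval from -0.07 to 0.26. Of these targets the 2 with the larger folds were the 2 with the lowest levels of all 34 genes.

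The genes that act on eIF2 itself had folds from 0.01 to 0.21, all positive, beside 4443 of all 10209 genes tested. Where 5286 of all 10209 genes had groups that did not overlap, 1 of these 5 did so. This was Eif2ak3, the ER stress kinase PERK, with 5.31 and 5.74 RPKM in Control against 6.44 and 6.62 in Chd1KD (log2 fold 0.21, SE 0.08, limma, adjusted p = 0.22). Eif2ak4, the amino acid sensor GCN2, measured 7.20 and 7.58 RPKM in Control against 7.25 and 8.35 in Chd1KD. Eif2s1, the phosphorylated subunit of eIF2, measured 48.0 and 44.3 RPKM in Control against 50.6 and 47.3 in Chd1KD. Each of the 2 phosphatase subunits that return eIF2 to its active state overlapped between the groups. The inducible one, Ppp1r15a (GADD34), had 10.5 and 8.38 RPKM in Control against 10.8 and 9.75 in Chd1KD, and the constitutive one, Ppp1r15b, had 34.2 and 35.3 RPKM in Control against 34.3 and 36.0 in Chd1KD.

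Of the 3 sensors and factors in the ER branch, Xbp1 and Ern1 differed more within Control than between the groups, and Atf6 did not. Xbp1 (chromosome 11, 5520641 to 5525993) measured 19.8 and 25.0 RPKM in Control against 21.8 and 23.7 in Chd1KD, so the Chd1KD values lay inside the Control range. The table lists it as a pair of RefSeq transcripts that the files do not name by splice state, so no splicing is read from them. One transcript had 6.50 and 11.2 RPKM in Control against 10.3 and 11.6 in Chd1KD, and the other had 13.3 and 13.9 RPKM in Control against 11.5 and 12.1 in Chd1KD. The first made up 32.9% of Xbp1 in Control replicate 1 and 44.7% to 48.8% in the other 3 libraries. Ern1, which encodes IRE1, measured 17.9 and 23.2 RPKM in Control against 19.4 and 19.1 in Chd1KD. Atf6, cleaved in the Golgi to release its transcription factor domain, measured 11.69 and 11.67 RPKM in Control against 11.1 and 10.9 in Chd1KD. It was the only gene of the 3 whose groups did not overlap, at a log2 fold of -0.08 (95% interval -0.23 to 0.07, limma, adjusted p = 0.52).

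The major chaperones were abundant and close between the groups. Hspa5, the HSP70-type chaperone BiP (chromosome 2, 34772090 to 34776529), measured 287 and 314 RPKM in Control against 299.6 and 326 in Chd1KD. Its log2 fold of 0.06 had an interval from -0.11 to 0.23, and the libraries interleaved. Hsp90b1, the HSP90-type chaperone GRP94, measured 316 and 331 RPKM in Control against 297 and 324 in Chd1KD. Hyou1, which exchanges nucleotide on BiP, was lower in both Chd1KD libraries, with 48.6 and 52.4 RPKM in Control against 44.6 and 48.2 in Chd1KD (log2 fold -0.12, limma, adjusted p = 0.39). BiP thus had a small positive fold and both of these partners a small negative one. With 1 library left out, the fold of Hspa5 went as low as -0.0050 and that of Hsp90b1 as high as 0.0048. Differences between these genes were not tested.

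Of the J-domain cochaperones, which pass clients to BiP, Dnajc3 lay above Control in both Chd1KD libraries, with 13.3 and 13.1 RPKM in Control against 13.5 and 14.4 in Chd1KD. Dnajb9 (ERdj4) had 3.73 and 4.71 RPKM in Control against 4.08 and 5.17 in Chd1KD, and Dnajb11 (ERdj3) had 38.3 and 36.6 RPKM in Control against 37.9 and 37.2 in Chd1KD. Both of these overlapped. Sdf2l1, a partner of Dnajb11, had the highest fold of the ER branch, with 9.72 and 9.80 RPKM in Control against 10.98 and 11.07 in Chd1KD. Its replicates lay close together in each group (log2 fold 0.16, SE 0.06, limma, adjusted p = 0.25).

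Among the folding enzymes, Pdia3 and Calr were higher in both Chd1KD libraries and Pdia4, Pdia6 and Canx overlapped. Pdia3, the disulfide isomerase of the glycoprotein cycle, measured 304 and 287 RPKM in Control against 325 and 321 in Chd1KD (log2 fold 0.13, SE 0.06, limma, adjusted p = 0.30). Its partner Calr, the soluble lectin chaperone calreticulin, measured 326 and 334 RPKM in Control against 343 and 373 in Chd1KD (log2 fold 0.11, limma, adjusted p = 0.38). Canx, the membrane lectin calnexin of the same cycle, was at 213 RPKM in both Control libraries and at 208 and 216 RPKM in Chd1KD. The groups of Canx thus overlapped where those of its 2 partners did not; differences between these genes were not tested. The isomerase Pdia4 measured 67.3 and 77.3 RPKM in Control against 69.0 and 80.5 in Chd1KD, and Pdia6 measured 131 and 144 RPKM in Control against 139 and 147 in Chd1KD.

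None of the 4 genes of ER-associated degradation had groups that stood apart, where 5286 of all 10209 genes tested did. Herpud1, a scaffold of the degradation complex, measured 9.84 and 11.5 RPKM in Control against 10.3 and 8.69 in Chd1KD. Edem1, which directs misfolded glycoproteins to degradation, measured 17.6 and 20.7 RPKM in Control against 20.6 and 21.1 in Chd1KD. The ubiquitin ligase Syvn1 (HRD1) and its adaptor Sel1l form the core of the complex. Syvn1 measured 12.4 and 13.1 RPKM in Control against 12.0 and 12.7 in Chd1KD, and Sel1l measured 6.47 and 6.42 RPKM in Control against 5.86 and 6.66 in Chd1KD.

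The 2 secreted ER stress proteins likewise overlapped, as did 4923 of all 10209 genes tested. Creld2 had the lowest fold of the 34 genes, with 29.3 and 33.0 RPKM in Control against 23.6 and 29.6 in Chd1KD (log2 fold -0.23, SE 0.11, 95% interval -0.49 to 0.04, limma, adjusted p = 0.33). Without Chd1KD replicate 1 the fold was -0.067. Manf, a trophic factor released under ER stress, measured 49.3 and 51.0 RPKM in Control against 47.8 and 51.3 in Chd1KD.

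**Figure D2:**
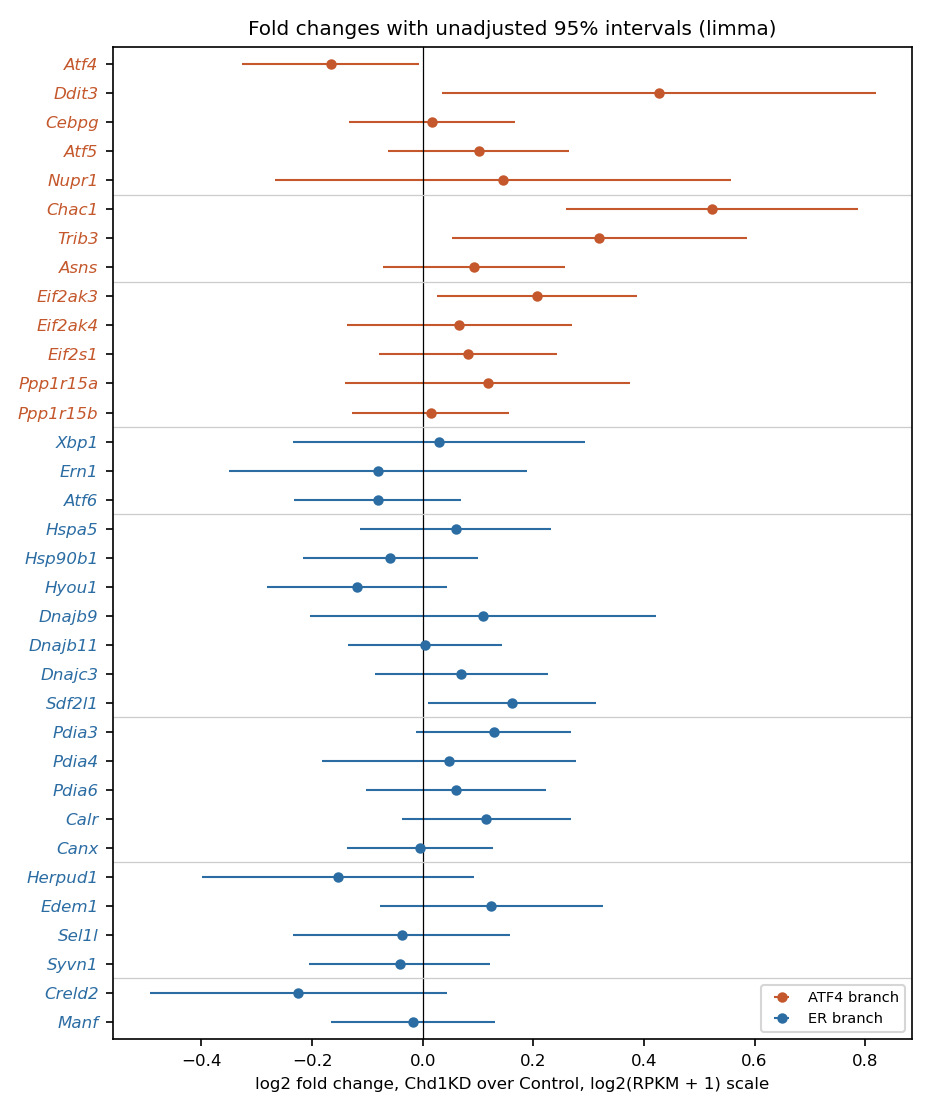
Log2 fold change of each of the 34 genes (Chd1KD over Control, log2(RPKM + 1) scale) with its unadjusted 95% interval from limma, orange for the ATF4 branch and blue for the ER branch. The upper bounds of Ddit3, Chac1 and Trib3 pass 0.585, a 1.5-fold change of RPKM + 1, and no interval of the ER branch reaches that size in either direction.

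Set side by side, the median log2 fold change was 0.10 for the ATF4 branch and 0.0042 for the ER branch, beside -0.02 for all genes tested. Positive folds were found in 12 of 13 genes of the ATF4 branch, with Atf4 itself the exception, and in 11 of 21 genes of the ER branch, beside 4443 of all 10209 genes tested. The groups did not overlap for 6 of 13 genes of the ATF4 branch (5 higher, 1 lower) and for 6 of 21 of the ER branch (4 higher, 2 lower). Over all genes tested the groups did not overlap for 5286 of 10209, with 21.3% higher and 30.5% lower, so the ATF4 branch was near that share and the ER branch below it. For the ER branch the unadjusted 95% intervals ran from -0.49 to 0.42 at the extremes. None of them reached 0.585, a 1.5-fold change of RPKM + 1. In the ATF4 branch the intervals of Ddit3, Chac1 and Trib3 included that size, that of Trib3 only just (upper bound 0.586). At low levels this size is a larger change in RPKM itself. A gene at a few RPKM, such as Nupr1 (upper bound 0.56), can stop short of it and still include a 1.5-fold ratio of RPKM.

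The contrast of the branches, ATF4 median minus ER median, was 0.097, and its sign rested on 1 library. Without Control replicate 2 it was -0.021, with medians of 0.038 and 0.059, and without Control replicate 1 it was 0.19, with medians of 0.16 and -0.033. In single libraries, each gene set against its own mean over the 4 libraries, the ATF4 median was -0.0051 and -0.10 in Control and 0.07 and 0.12 in Chd1KD. The ATF4 branch thus lay higher in both Chd1KD libraries than in either Control library. The ER median was -0.02 and 0.04 in Control and -0.03 and 0.05 in Chd1KD, so the ER branch overlapped between the groups. The ATF4 minus ER difference was 0.02 and -0.14 in Control and 0.10 and 0.06 in Chd1KD. Genes within a branch are not replicates, and no test was made of these medians.

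**Figure D3:**
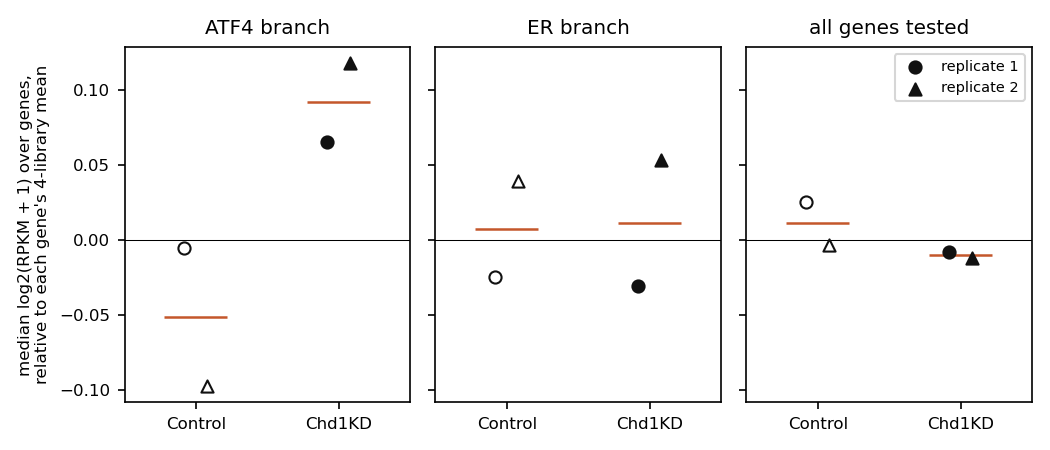
Median over genes of log2(RPKM + 1) relative to each gene's mean over the 4 libraries, for the ATF4 branch, the ER branch and all genes tested, with open symbols for Control, filled symbols for Chd1KD, circles for replicate 1, triangles for replicate 2 and lines at the group means. The ATF4 branch is at -0.10 to -0.0051 in Control and 0.07 to 0.12 in Chd1KD, and the ER branch separates by replicate number within each group.

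The ER branch also differed by replicate number. Replicate 2 was above replicate 1 in both groups for 13 of its 21 genes and for 3 of 13 of the ATF4 branch, against 25.4% of all genes tested. The 13 were Xbp1, Hspa5, Hsp90b1, Hyou1, Dnajb9, Sdf2l1, Pdia4, Pdia6, Calr, Edem1, Syvn1, Creld2 and Manf. The median difference, replicate 2 minus replicate 1, was 0.08 in Control and 0.08 in Chd1KD for the ER branch, beside -0.03 and -0.0052 for all genes tested. It was -0.12 and 0.06 for the ATF4 branch. Pdia4 differed by 0.20 and 0.22 between replicates and by 0.05 between the groups, and Dnajb9 differed by 0.27 and 0.28 between replicates and by 0.11 between the groups. The Control replicates lay further apart than the group difference for 12 of 21 genes of the ER branch and 6 of 13 of the ATF4 branch, against 50.5% of all genes. What the replicate number stands for is not given in the labels, and its part in the results was not tested.

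**Figure D4:**
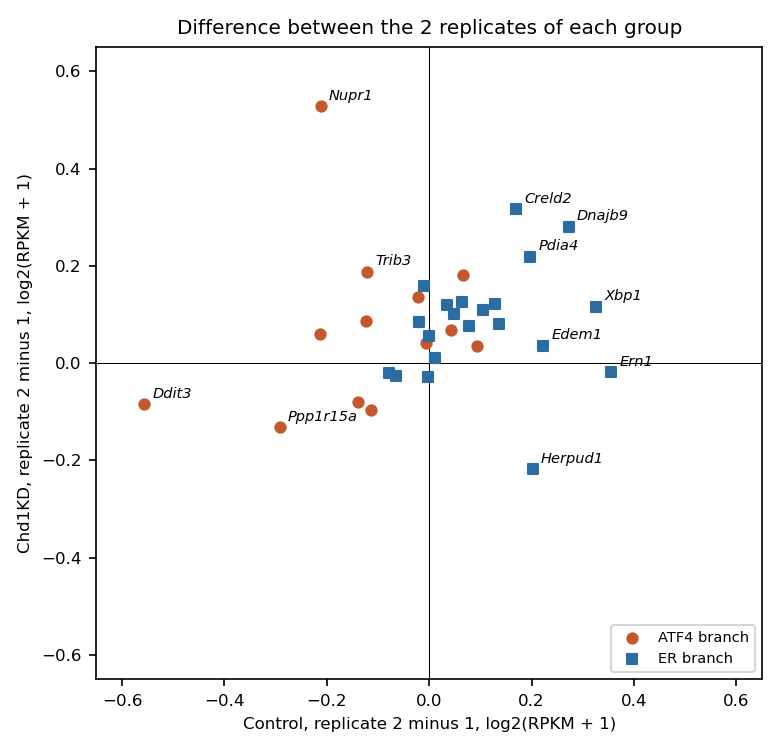
Difference between replicate 2 and replicate 1 in log2(RPKM + 1), Control on the x axis and Chd1KD on the y axis, with 1 point per gene, orange circles for the ATF4 branch and blue squares for the ER branch. In the upper right quadrant, where replicate 2 is higher in both groups, lie 13 of 21 ER branch genes and 3 of 13 ATF4 branch genes, while Ddit3 differs by -0.56 in Control.

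Folds of ER branch genes with and without an ERSE covered much the same range. The 8 genes with an ERSE had log2 folds from -0.23 (Creld2) to 0.11 (Calr), with a median of 0.03. The other 10 ER branch genes with a promoter ran from -0.15 (Herpud1) to 0.16 (Sdf2l1), with a median of 0.04. Herpud1 and Dnajb11 among these 10 held the second form, ERSE-II. Genes of the ATF4 branch that held the composite core ranged from 0.09 (Asns) to 0.52 (Chac1), while Ddit3, with a fold of 0.43, held none in this window.

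A wider list of 112 genes of the same pathways, of which 105 were tested, held no gene that passed (limma, adjusted p from 0.06 to 0.997). At an unadjusted p under 0.05 there were 8 higher and 8 lower, the share of all genes at that level being 18.5%. The wider ATF4 targets outside amino acid metabolism had 11 of 13 positive folds and a median of 0.11, where 4443 of all 10209 genes tested had a positive fold. Atf3, a stress-induced repressor of the ATF family, measured 5.12 and 3.78 RPKM in Control against 8.61 and 7.09 in Chd1KD (log2 fold 0.70, SE 0.14, limma, adjusted p = 0.089). Gdf15, a secreted stress cytokine, measured 12.4 and 9.64 RPKM in Control against 17.0 and 14.3 in Chd1KD (log2 fold 0.48, SE 0.13, limma, adjusted p = 0.14). For both genes the Chd1KD values lay above the Control values. With each library left out in turn the log2 fold ran from 0.53 to 0.88 for Atf3 and from 0.32 to 0.64 for Gdf15.

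The ATF4 targets of amino acid supply and transport had a median of -0.0029 over 15 tested genes and did not point one way. Slc7a11, the cystine importer, measured 6.08 and 7.49 RPKM in Control against 8.61 and 10.4 in Chd1KD (log2 fold 0.43, SE 0.12, limma, adjusted p = 0.15). Phgdh, the first enzyme of serine synthesis, lay below Control in both Chd1KD libraries, with 724 and 669 RPKM in Control against 569.5 and 605 in Chd1KD (log2 fold -0.24, SE 0.07, limma, adjusted p = 0.15). Slc7a1, an importer of cationic amino acids, and Shmt2 are named by a choice made with their values in view. The log2 fold of Slc7a1 was 0.24 (SE 0.09, limma, adjusted p = 0.23), and ran from 0.12 to 0.36 with each library left out in turn. Shmt2 lay below Control, with 91.7 and 85.9 RPKM in Control against 76.8 and 77.1 in Chd1KD (log2 fold -0.20, SE 0.06, limma, adjusted p = 0.16). Of the 10 genes of eIF2, its exchange factor eIF2B and the remaining kinases, 6 had positive folds (4443 of 10209 over all genes tested). The smallest p-values were those of Eif2b3, an eIF2B subunit (24.7 ± 3.0 RPKM in Control and 20.98 ± 1.9 in Chd1KD, SD, n = 2 each, limma, adjusted p = 0.29), and Eif2ak1, the heme-regulated kinase (22.2 ± 1.0 and 20.3 ± 0.41 RPKM, limma, adjusted p = 0.35).

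The wider ER genes had a median of -0.0011 over 67 tested genes. The degradation genes among them had 13 of 20 negative folds, near the share of 5766 in 10209 over all genes tested, and 11 with both Chd1KD values below both Control values, against 30.5% of all genes. Os9, a lectin that delivers glycoproteins to the ligase complex, was one of these 11 (20.7 and 20.2 RPKM in Control, 17.3 and 16.7 RPKM in Chd1KD, log2 fold -0.25, limma, adjusted p = 0.12). Man1b1, a mannosidase of the same route, had means of 16.9 ± 0.94 and 14.8 ± 0.010 RPKM (SD, n = 2 each). Atf6b, the paralog of Atf6, measured 27.9 and 28.4 RPKM in Control against 24.4 and 23.6 in Chd1KD (log2 fold -0.22, SE 0.06, limma, adjusted p = 0.14), and Wfs1, an ER membrane protein induced by ER stress, had a ratio of 1.16. Among 18 further folding genes, Fkbp2, a prolyl isomerase, had a ratio of 0.86 and Txndc11, a thioredoxin domain protein, a ratio of 1.15.

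Of 22 genes of translocation and N-glycosylation, 15 had positive folds, with a median of 0.04, beside the 4443 of 10209 positive folds and the median of -0.02 over all genes tested. Sec61b, a subunit of the translocation channel, had the smallest p of the wider list, with 253 and 249 RPKM in Control against 315 and 331 in Chd1KD (log2 fold 0.36, SE 0.06, limma, adjusted p = 0.064). Its fold ran from 0.33 to 0.40 with each library left out in turn. The other subunits of the channel, Sec61a1 and Sec61g, had log2 folds of -0.12 and 0.03. Sec11c, a subunit of the signal peptidase, measured 76.4 and 83.3 RPKM in Control against 89.4 and 104 in Chd1KD (log2 fold 0.27, SE 0.09, limma, adjusted p = 0.18).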

How the data were processed

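The authors deposited RPKM values for 30582 RefSeq transcripts in 4 libraries, per the file headers. According to the submitters' processing notes the tools were TopHat 1.4.1 and Cufflinks 1.3.0 and the build was mm10. Of the strand setting, the annotation release and any filter, the labels and headers say nothing. Between the series table, which was used, and the 4 single-library tables, 0 values differed. Symbols came from the NCBI table of GRCm38.p6 (30003 transcripts) and from GENCODE M21 (180), 399 stayed unnamed, and RPKM was summed per gene. All 34 members matched. Of them, 15 overlap another annotated gene and 9 a protein-coding one.

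The test was limma 3.58.1 (R 4.3.3) with its mean-variance trend, applied to log2(RPKM + 1) of the 10209 genes whose mean reached 1 RPKM, with p adjusted over all of them. RPKM carries no counts, so depth is unknown and no counting interval is given. With 2 against 2 libraries an exact permutation test cannot reach the threshold, so none is given. In simulated data of 10209 genes with the fitted spread, limma found 78.0% of 1.5-fold changes and 97.0% of 2-fold changes. These changes were set on the log2(RPKM + 1) scale in genes of any level. At low levels the same step is a larger change in RPKM. The shares therefore do not hold for RPKM ratios of genes as low as Chac1 and Trib3. Simulated noise is independent between genes, which real noise is not. The shares found also depend on how many genes were changed in each simulated set. That number was chosen beforehand and may differ from these data. The members, the gene lists and the tests were chosen with earlier results of these data known. All members are named; from the wider list the rule took called genes and the 2 smallest p-values of each role. Sec61a1, Sec61g, Slc7a1 and Shmt2 fell outside it and were picked with their values in view. Of the list entries, 5 matched by an older symbol and 1 did not match. Alternatives covered the pseudocount, filter, scaling, variance model, replicate number, choice of transcript and each library left out. Motifs were searched in RefSeq promoters (GRCm38.p6), and positions count from the transcript start.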

Additional observations from a re-analysis of the deposited data

How the results depend on the processing

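The number of members called was 0 under all 10 alternatives that kept the 4 libraries (limma, 6 at an unadjusted p under 0.05 as reported). At a mean of at least 5 RPKM, 30 members were tested. Counts of calls with 1 library left out are not given for the members, the wider list or the whole table, because a group of 1 library adds nothing to the spread. The members were not unchanged there: the log2 fold of Ddit3 went from 0.43 to 0.71 without Control replicate 1. Over the whole table the count of calls, 47 as reported, was 0 when low genes were kept (limma; 2153 had an unadjusted p under 0.05), 71 at a mean of at least 5 RPKM, 95 with TPM scaling, 6 without a variance trend, 92 with a robust trend, 12 with the most abundant transcript and 49 to 236 with 1 library left out. With the replicate number as a block it was 325, with 0 members and 5 genes of the wider list (Atf3, Gdf15, Slc7a11, Sec11c and Sec61b) called. The numbers carry no stated pairing; across 10209 genes the replicate differences of the 2 groups correlated at r = 0.22. The count for the wider list was 1 (Sec61b) at a mean of at least 5 RPKM, with TPM scaling, with quantile normalization and with a robust trend, and 0 to 3 with 1 library left out. The cause of these shifts was not tested.

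With 1 library left out, the ATF4 median ran from 0.038 to 0.16, the ER median from -0.033 to 0.059 and their difference from -0.021 to 0.19. Of the 34 log2 folds, 17 changed sign under some alternative, none of them called in either direction. Canx was 0.026 and Manf 0.013 with TPM scaling, and Canx was 0.033 and Manf 0.0050 with quantile normalization. With the most abundant transcript Xbp1 was -0.18, Dnajb11 -0.024 and Syvn1 0.055. With 1 library left out, Cebpg ran from -0.0037 to 0.038, Nupr1 from -0.12 to 0.41, Eif2ak4 from -0.025 to 0.16, Ppp1r15a from -0.029 to 0.26, Ppp1r15b from -0.020 to 0.048, Xbp1 from -0.13 to 0.19, Ern1 from -0.26 to 0.096, Hspa5 from -0.0050 to 0.12, Hsp90b1 from -0.12 to 0.0048, Dnajb9 from -0.031 to 0.25, Dnajb11 from -0.028 to 0.036, Pdia4 from -0.062 to 0.16, Pdia6 from -0.0077 to 0.13, Canx from -0.033 to 0.022, Sel1l from -0.12 to 0.042 and Manf from -0.068 to 0.034.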

Other observations

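Several members are listed as more than 1 transcript, whose assignment of shared reads is the authors' and carries no error here. The minor transcript of Eif2ak4 held 14.4% of the gene in Control replicate 1, 5.48% in Control replicate 2, and 3.48% and 2.53% in Chd1KD. The minor transcript of Syvn1 held 38.1% in Control replicate 1 and 21.5% to 25.5% in the other 3 libraries. The main transcript of Hspa5 held 77.2% to 80.1% in all 4 libraries, and the noncoding transcript of Atf5 held 89.3% to 94.9%. For Xbp1, Eif2ak4 and Syvn1, Control replicate 1 was the library farthest from the other 3. It was not the farthest for Sel1l, Atf5, Canx, Dnajb11 or Hspa5. The minor transcript of Sel1l held 19.8% in Chd1KD replicate 2 and 7.98% to 13.6% in the other 3 libraries. These values were not tested.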
